A study of Homo sapiens with 10 samples.

Results

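HCT116 is a line of human colorectal carcinoma cells that grows as an epithelial monolayer and is widely used in work on colon cancer. The 5 HCT116-WT cultures were described here across all 58050 genes of the deposited table, as 5 of the 10 RNA libraries of the series. They were the libraries that carry the HCT116-WT label, and no other library entered any value below. The study set these cells beside a CD276 knockout made from the same line, in order to examine the immune checkpoint protein CD276 on tumor cells. The labels describe electroporation of Cas9 protein with either a guide to CD276 or a scrambled guide, and whether the HCT116-WT cultures had received the scrambled guide was not given in the sources used here. The HCT116-WT and knockout cells were kept in different flasks, in McCoy's 5A medium with fetal serum. The 5 biological replicates with the HCT116-WT label are called cultures 1 to 5 by their replicate number. Whether each had its own flask is not clear from the sources. The cultures share 1 cell line, so the spread among them is between replicates of that line. It also holds the spread from RNA extraction, library preparation and sequencing.

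Levels are in TPM, a unit of transcript abundance that scales the reads of a gene for its transcript length and each library to the same total, so that levels can be compared between genes. Lists of values follow the order of cultures 1 to 5, and ± is the SD over them (n = 5). Per the labels the libraries were sequenced to 40000000 reads on average, with no number for each culture, and as TPM keeps no read counts, counting error could not be put into intervals. A gene that averaged 1 TPM or more is counted below as reaching 1 TPM. A value of exactly 0 is written as listed at 0, since the table does not show how few reads would have given a value. As all 5 cultures form 1 group, no test between groups was made, and a pair of genes is said to lie apart where the lowest culture of the one was above the highest culture of the other.

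The libraries were alike in the number of genes above 0 and in their correlations with one another. Between 22315 and 22790 genes were above 0 per culture, and Pearson correlations of log2(TPM + 1) over all genes ran from 0.992 to 0.994 between pairs of cultures. These correlations are across genes, which are not independent replicates. Culture 3 stood apart from the others at the most genes. Of the 8124 protein-coding genes that averaged 10 TPM or more, it lay at least 1.5 times above the median of the other cultures at 66 genes and at least 1.5 times below it at 83, while the other cultures did so at 9 to 13 and at 6 to 25 genes. Culture 1 was the highest at 3319 of these genes, and culture 3 the lowest at 3456 and the highest at 2331. The deviation of a culture from the mean log2(TPM + 1) of each gene also went with transcript length. Its Spearman (rank) correlation with length was 0.159, 0.121 and 0.137 in cultures 1, 2 and 5. In cultures 3 and 4 it was -0.152 and -0.105. How far this trend bears on single genes was not tested. The median spread over genes and the spread of PINK1 and KLF5 are given with and without culture 3. All means, SDs and ranges of genes include it.

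CD276, the gene under study, which codes for the immune checkpoint protein B7-H3, was transcribed in every culture. It measured 49.3, 42.02, 53.6, 38.1 and 43.3 TPM, with a mean of 45.3 ± 6.17 TPM. No culture was near 0 and the highest lay less than 1.5 times above the lowest.

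A mean of 1 TPM was reached by 13604 genes, and among the 19629 protein-coding genes of the annotation it was reached by 11684, which is 59.5%. Counts of list and family members at 1 TPM below are to be read beside this share. At the other end 29848 genes were listed at 0 in all 5 cultures, among them 3470 protein-coding genes (17.7%). The class from 10 to under 100 TPM held the most protein-coding genes above 0 (6535). Only 145 protein-coding genes reached 1000 TPM. All 155 genes at or above that level gave 37.9% of the TPM, while the 5093 genes from 1 to under 10 TPM gave 2.15%. The long noncoding RNAs (lncRNAs), which are transcripts without a known protein product, were mostly silent or low, as 785 of 14157 reached 1 TPM and together they gave 0.827 ± 0.0353% of the TPM. Among the autosomes and chromosome X, protein-coding genes on X reached 1 TPM least often (371 of 843, 44.01%) and those on chromosome 16 most often (572 of 841, 68.0%).

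Genes of protein synthesis were prominent among the most abundant messages. Dividing cells build new ribosomes in each cycle, and the messages for ribosomal proteins and elongation factors are among the most abundant in cultured cells. EEF1A1, the elongation factor that brings aminoacyl-tRNA to the ribosome, was the most abundant gene with 16086, 15228, 13097, 14982 and 15004 TPM. Its lowest culture lay above the highest culture of every other nuclear gene. The 85 genes with symbols of cytosolic ribosomal proteins gave 16.9 ± 0.957% of the TPM, and 81 of them reached 1 TPM, each of these with more than 100 TPM. They made up 16 of the 30 most abundant nuclear genes and 53 of the 100 most abundant genes overall.

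Among the ribosomal protein genes, RPS2 (5459.98 ± 368 TPM), RPL41 (5334 ± 993 TPM), RPL7 (5048 ± 184 TPM) and RPS3 (4821 ± 235 TPM) were highest. RPL41, which codes for the smallest ribosomal protein, varied most of these, with 4304, 5232, 6749, 5838 and 4549 TPM. Cultures 3 and 4 were the highest and cultures 1 and 5 the lowest. RPL7 in contrast measured 5256, 4951, 4783, 5105 and 5145 TPM. The other translation genes among the 30 were NPM1, a nucleolar factor of ribosome assembly (4638 ± 324 TPM), and PABPC1, which binds the poly(A) tail (3347 ± 231 TPM). TPT1 (3568 ± 245 TPM) was also among the 30. Many processed pseudogenes resemble EEF1A1 and the ribosomal protein genes, and how their shared reads were divided was settled by the quantification, so the exact levels of these genes are uncertain.

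The remaining genes among the 30 belonged mostly to the cytoskeleton, to glycolysis and to protein folding. The cytoplasmic actins were ACTG1 with 7059, 6482, 7402, 6270.2 and 7164 TPM and ACTB with 3416, 3365, 3835, 3394 and 3392 TPM. ACTG1 was above ACTB in every culture. The actin-binding thymosin TMSB10 reached 3607 ± 525 TPM and the chromatin-associated PTMA 4593 ± 169 TPM. GAPDH (4648 ± 155 TPM) and ENO1 (3181 ± 123 TPM) act in glycolysis. HSP90AB1 (3154 ± 241 TPM) and HSPA8 (2717 ± 145 TPM) are constitutive chaperones, PPIA (3137 ± 71.9 TPM) is the prolyl isomerase cyclophilin A, and FTH1 (3019 ± 148 TPM) is the heavy chain of the iron store ferritin. Most neighbours in this order did not differ beyond their spread. Of the 30 steps from one gene to the next, EEF1A1 lay apart from ACTG1 and ACTG1 from RPS2, and at the other 28 the ranges overlapped.

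Messages of the translation machinery often begin with a run of pyrimidines (C and T), through which their translation is controlled together with cell growth. The bases around the annotated start were therefore read from RefSeq (GRCh38.p14) for abundant genes, from 45 bases before to 15 bases from the start on. Capitals mark the run of C and T that holds or lies nearest to the start. The first 7 are translation genes and the last 2, ACTG1 and GAPDH, are genes of like abundance outside translation, shown for contrast.
EEF1A1 (chr6:73521018-73521077, minus strand): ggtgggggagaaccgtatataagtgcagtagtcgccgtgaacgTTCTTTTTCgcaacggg
RPL41 (chr12:56116588-56116647, plus strand): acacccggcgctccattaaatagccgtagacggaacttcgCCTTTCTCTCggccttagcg
RPS3 (chr11:75399473-75399532, plus strand): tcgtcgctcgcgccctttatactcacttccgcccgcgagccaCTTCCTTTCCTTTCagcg
NPM1 (chr5:171387804-171387863, plus strand): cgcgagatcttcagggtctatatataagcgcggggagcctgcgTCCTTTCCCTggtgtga
RPLP0 (chr12:120201097-120201156, minus strand): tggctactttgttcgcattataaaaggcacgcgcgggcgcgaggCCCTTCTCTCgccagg
RPS18 (chr6:33272030-33272089, plus strand): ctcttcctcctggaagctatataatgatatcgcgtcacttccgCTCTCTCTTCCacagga
RPLP1 (chr15:69452773-69452832, plus strand): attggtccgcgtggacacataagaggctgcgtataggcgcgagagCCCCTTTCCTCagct
ACTG1 (chr17:81512785-81512844, minus strand): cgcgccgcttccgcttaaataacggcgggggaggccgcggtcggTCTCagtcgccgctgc
GAPDH (chr12:6535219-6535278, plus strand): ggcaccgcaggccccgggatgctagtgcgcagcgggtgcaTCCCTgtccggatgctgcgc

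The runs shown were 9 bases long in EEF1A1, 10 in RPL41, 14 in RPS3, 10 in NPM1, 10 in RPLP0 and 11 and 11 in RPS18 and RPLP1, against 4 in ACTG1 and 5 in GAPDH. The runs of 3 further genes whose sequences are not printed were 8 bases long in TPT1, 6 in RPL12 and at least 10 in RPL4, where the run reached the end of the window. All these genes were picked as examples. Over the 15249 protein-coding genes with a promoter in the RefSeq table, an unbroken run of at least 8 C or T on the coding strand, between 5 bases before and 12 bases after the start, was present in 7.16%. The share was 6.06% among genes listed at 0, 6.91% from 1 to under 10 TPM and 6.56% from 10 to under 100 TPM. It was 10.7% from 100 to under 1000 TPM and 45.8% (49 of 107) at 1000 TPM and above. Of the 67 cytosolic ribosomal protein genes matched, 45 had such a run (67.2%). Without them 10 of the 49 genes at 1000 TPM and above had it (20.4%), and of 69 mitochondrial ribosomal protein genes 4 had it (5.80%). These matches describe the letters around 1 annotated start per gene, and no start was measured here.

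The mitochondrial genome gave 6.39 ± 1.27% of the TPM, with 4.76, 7.89, 5.86, 5.998 and 7.46% in cultures 1 to 5. It codes for subunits of the respiratory chain and of ATP synthase. MT-ATP6, a subunit of ATP synthase, was its most abundant gene with 7917, 12456, 8816, 8965 and 13261 TPM, followed by the cytochrome oxidase subunits MT-CO3 (9586 ± 1919 TPM) and MT-CO1 (7725 ± 1645 TPM). Cultures 2 and 5 were the highest for MT-ATP6 and culture 1 the lowest. The lowest protein-coding gene was MT-ND6, which lies on the opposite strand from the others, with 26.4, 57.8, 49.8, 44.2 and 42.1 TPM. All 22 mitochondrial tRNA genes were listed at 0 in these libraries, which were made from polyadenylated RNA, so a 0 here need not mean absence from the cells. Since TPM sums to a fixed total, a higher mitochondrial share lowers the values of all other genes in the same culture in proportion.

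The most abundant lncRNAs were mostly hosts of small nucleolar RNAs, whose spliced transcripts remain after the small RNAs are cut from the introns. SNHG29 measured 849, 852, 931, 875 and 832 TPM, and SNHG6 (457 ± 28.8 TPM), GAS5 (322 ± 14.8 TPM), ZFAS1 (282 ± 16.6 TPM) and SNHG16 (241 ± 10.8 TPM) followed. MALAT1, a long nuclear RNA, varied more, with 153, 171, 127, 271 and 141 TPM, and its highest culture was more than 2 times its lowest. Its coefficient of variation (CV), the SD as a percentage of the mean, was 33.4%, against 4.42% for SNHG29, and fell to 12.6% when culture 4 was left out, an alternative added after seeing the data.

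The lineage genes described a simple epithelium with few signs of a mature cell type. In the colon, stem cells at the crypt base give rise to absorptive colonocytes and to secretory goblet, enteroendocrine and tuft cells, each of which switches on its own products, while keratins 8, 18 and 19 and the adhesion proteins EpCAM and E-cadherin are shared by the epithelium. KRT8 measured 2087, 1920.03, 2379, 1997 and 2026 TPM, KRT19 1238, 1175, 1481, 1185 and 1255 TPM and KRT18 853, 771, 828, 845 and 809 TPM. EPCAM measured 284, 262, 211, 279 and 263 TPM. CDH1, which codes for E-cadherin, measured 47.9, 44.5, 43.2, 34.6 and 43.4 TPM and the epithelial transcription factor ELF3 63.9, 63.8, 68.1, 58.8 and 73.7 TPM. No culture was low for any of these genes, and the order KRT8, KRT19, KRT18, EPCAM, ELF3, CDH1 held without overlap of neighbours.

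The transcription factors of intestinal identity were present at lower levels. CDX2, the caudal factor that specifies intestine, measured 8.19, 8.71, 12.2, 8.68 and 6.78 TPM, and HNF4A, which drives enterocyte genes, measured 3.82, 3.55, 3.49, 3.38 and 3.33 TPM. CDX1, the related caudal factor, was listed at 0 in all 5 cultures. The intestinal genes VIL1 (a brush border protein), CDH17 (an intestinal cadherin), GPA33 and LGALS4 had means of 0.022, 0.034, 0.088 and 0.026 TPM, and the keratin of the upper crypt, KRT20, 0.728 TPM. In all, 8 of 14 colorectal epithelium genes reached 1 TPM (57.1%), near the 59.5% of all protein-coding genes. The keratins, EPCAM and CDH1, which the epithelium shares, were expressed, and of the intestinal factors CDX2 and HNF4A were present at a low level. The other intestinal genes CDX1, VIL1, CDH17, GPA33 and LGALS4 were the 5 of the 14 at or under 0.1 TPM.

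Genes of differentiated colon cells were at or near 0. Of 10 genes of absorptive colonocytes only CA2, a carbonic anhydrase, reached 1 TPM (32.2, 30.8, 29.2, 29.6 and 29.8 TPM), and 7 of the 10 were listed at 0 in all cultures, among them the chloride exchanger SLC26A3, the fatty acid binder FABP1, the anhydrase CA4 and the guanylins GUCA2A and GUCA2B. None of 9 goblet cell genes reached 1 TPM, with MUC2, the main mucin of the colon, at a mean of 0.006 TPM and TFF3 at 0. None of 5 Paneth, 8 enteroendocrine and 5 tuft cell genes did so either, the highest being PYY with 0.356 TPM. CEACAM5, the tumor marker carcinoembryonic antigen, was listed at 0, and none of the 12 genes of its family reached 1 TPM.

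Of 8 crypt stem cell genes 4 reached 1 TPM. SOX9, a transcription factor of the crypt base, measured 56.8, 53.5, 51.5, 52.1 and 52.9 TPM. RNF43 (21.1 ± 1.11 TPM) and AXIN2 (4.67 ± 0.379 TPM) are targets and feedback inhibitors of Wnt signalling, and EPHB2 (10.8 ± 1.301 TPM) sorts cells along the crypt. These 4 lay apart from one another. The stem cell receptor LGR5 and the matrix protein SMOC2 were listed at 0 in all cultures, and ASCL2 and OLFM4 had means of 0.004 and 0.002 TPM.

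Markers of other cells were sparse. None of 12 leukocyte genes and none of 5 endothelial genes reached 1 TPM, and PTPRC (CD45), which marks blood cells, had a mean of 0.054 TPM. Of 10 fibroblast and smooth muscle genes COL1A1 (7.31 ± 1.09 TPM), ACTA2 (5.27 ± 0.623 TPM) and DES (3.08 ± 0.387 TPM) reached 1 TPM, while COL1A2 and COL3A1, which are made together with COL1A1 in fibroblasts, were at 0.002 and 0.01 TPM. The summed level of these 10 genes ran from 14.9 to 17.02 TPM in the cultures. VIM, the intermediate filament of mesenchymal cells, was at 4.22 ± 0.231 TPM. Among neural genes the synaptic vesicle protein SYT1 stood out with 46.1, 38.1, 31.3, 33.02 and 40.1 TPM, whereas SNAP25, GFAP and RBFOX3 had means of 0.364, 0.114 and 0.004 TPM. PMEL (3.19 ± 0.74 TPM) was the only one of 4 melanocyte genes and SERPINA1 (2.24 ± 0.678 TPM) the only one of 3 hepatocyte genes to reach 1 TPM.

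**Figure D1:**
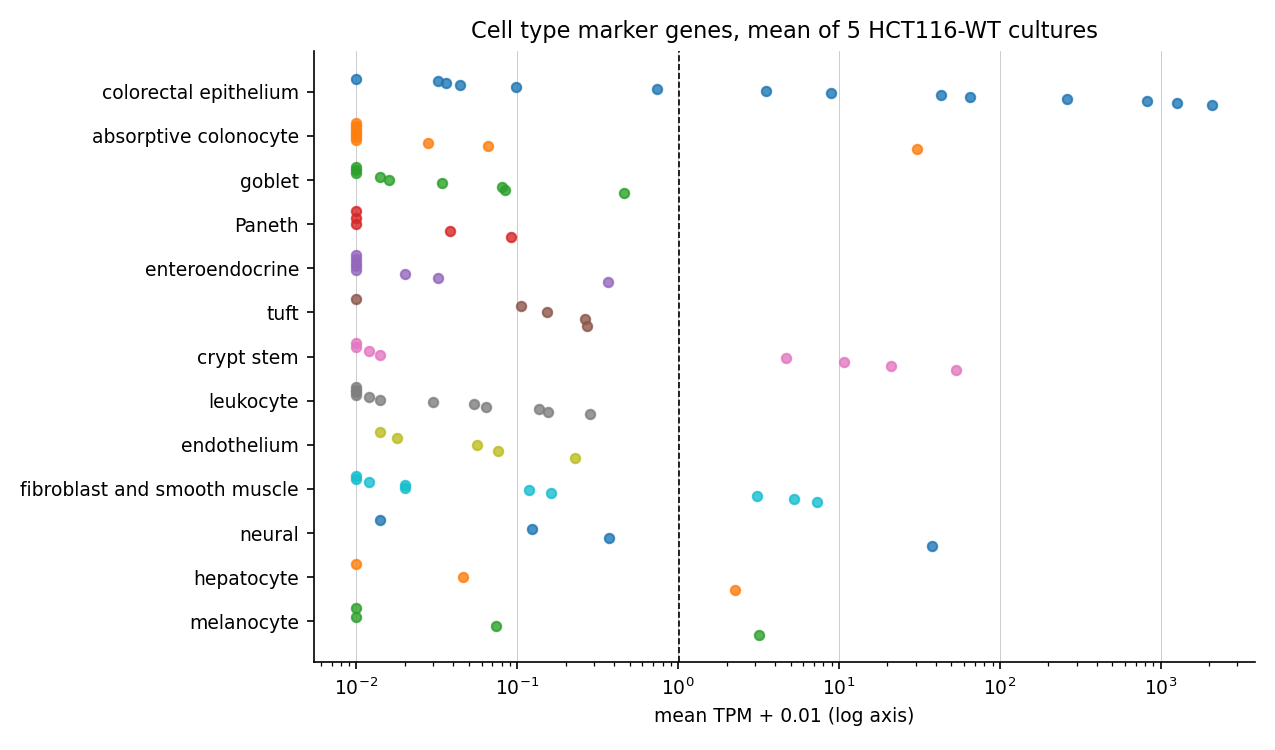
Each point is the mean TPM over the 5 cultures of 1 marker gene, plotted as TPM + 0.01 on a log axis, with 1 row for each cell type list and a dashed line at 1 TPM. The colorectal epithelium row reached 2082 TPM (KRT8), and no gene of the goblet, Paneth, enteroendocrine, tuft, leukocyte and endothelium rows reached 1 TPM.

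Promoters of silent genes held fewer CG dinucleotides, the bases at which DNA is methylated in human cells, than promoters of expressed genes, a description for which no test was made. In windows of 300 bases from RefSeq, 250 before the start and 50 from it on, the median number of CG was 5 for genes listed at 0, 8 from above 0 to under 0.1 TPM and 16 from 0.1 to under 1 TPM. From 1 to under 10 TPM it was 25, and in the higher classes it was 28, 27 and 26. The sequence TATAAA, read on the coding strand between 40 and 15 bases before the start, was present in 9.21% of genes listed at 0, in 0.885% from 10 to under 100 TPM and in 3.67% of all matched genes. It was more frequent again above that, with 2.76% from 100 to under 1000 TPM and 5.61% (6 of 107) at 1000 TPM and above, and 5 of the 49 genes of that class outside the ribosomal proteins held it (10.2%). Single genes departed from this order, as the last 120 bases before the start show for 5 genes, with each CG in capitals. MET and SMOC2 have many CG, and the one was expressed and the other silent. SLC26A3, CEACAM5 and KRT8 have few at the start that was read, and of these KRT8 was among the highest genes. Only 1 annotated start per gene was read. Whether it is the start used in these cells was not tested, so a window such as that of KRT8 may not be the promoter in use.
MET (chr7:116672076-116672195, plus strand): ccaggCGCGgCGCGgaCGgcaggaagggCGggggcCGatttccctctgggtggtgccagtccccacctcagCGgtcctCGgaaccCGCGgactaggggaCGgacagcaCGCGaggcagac
SMOC2 (chr6:168441064-168441183, plus strand): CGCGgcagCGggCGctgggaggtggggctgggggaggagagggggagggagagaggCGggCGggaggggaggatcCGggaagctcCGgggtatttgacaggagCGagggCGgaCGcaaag
SLC26A3 (chr7:107803224-107803343, minus strand): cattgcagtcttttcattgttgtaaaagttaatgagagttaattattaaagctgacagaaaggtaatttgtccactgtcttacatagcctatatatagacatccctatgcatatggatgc
CEACAM5 (chr19:41708506-41708625, plus strand): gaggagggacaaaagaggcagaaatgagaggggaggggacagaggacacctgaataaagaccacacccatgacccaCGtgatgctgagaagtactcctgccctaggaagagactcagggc
KRT8 (chr12:52926470-52926589, minus strand): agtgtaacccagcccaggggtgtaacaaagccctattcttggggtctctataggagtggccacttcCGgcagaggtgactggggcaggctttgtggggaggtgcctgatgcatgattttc

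In the full windows of 300 bases these genes held 30 CG (MET, 149 TPM), 28 (SMOC2, 0 TPM), 1 (SLC26A3, 0 TPM), 2 (CEACAM5, 0 TPM) and 2 (KRT8, 2082 TPM). DNA methylation was not measured in these libraries. Of its enzymes, the maintenance methyltransferase DNMT1 was at 146, 150.3, 110.3, 130.3 and 137 TPM and its partner UHRF1 at 53.7 ± 3.56 TPM. The de novo methyltransferases DNMT3B (11.3 ± 0.311 TPM) and DNMT3A (5.11 ± 0.999 TPM) were lower and DNMT3L was listed at 0. Among the demethylating TET enzymes TET3 (4.32 ± 0.293 TPM) and TET2 (2.39 ± 0.402 TPM) reached 1 TPM and TET1 (0.686 TPM) did not.

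HOX genes record position along the body axis, with the genes of low number used in front and those of high number behind, and they lie in 4 clusters. Of 39 HOX genes 23 reached 1 TPM (59.0%), near the 59.5% of all protein-coding genes. HOXA9 was the highest with 75.3, 66.2, 75.6, 79 and 69.8 TPM and lay apart from all others. HOXB8 (36.5, 36.9, 43.5, 38.5 and 38.5 TPM) and HOXB7 (38.5, 36.6, 37.4, 41.1 and 36.96 TPM) did not differ beyond their spread and were followed by HOXB9 (18.3 ± 0.611 TPM), HOXA10 (16.1 ± 0.522 TPM), HOXA7 (14.3 ± 0.319 TPM) and HOXB6 (11.99 ± 1.46 TPM). The highest levels thus lay in the middle to posterior part of the A and B clusters.

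HOXB3 (8.08 TPM), HOXB4 (7.08 TPM), HOXC9 (6.498 TPM), HOXA11 (6.43 TPM), HOXA5 (5.16 TPM), HOXA3 (4.73 TPM), HOXA6 (4.57 TPM), HOXB13 (3.91 TPM), HOXB5 (3.902 TPM) and HOXD8 (3.67 TPM) had means between 3 and 10 TPM. HOXA13, HOXC13, HOXC6, HOXC10 and HOXA4 lay between 1.97 and 2.35 TPM. In the D cluster only HOXD8 reached 1 TPM, with 4.01, 3.69, 3.13, 3.97 and 3.54 TPM. HOXD10, HOXC12 and HOXB1 were listed at 0 in all cultures. The hindgut gene HOXB13 measured 4.22, 3.76, 4.29, 3.42 and 3.88 TPM.

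**Figure D2:**
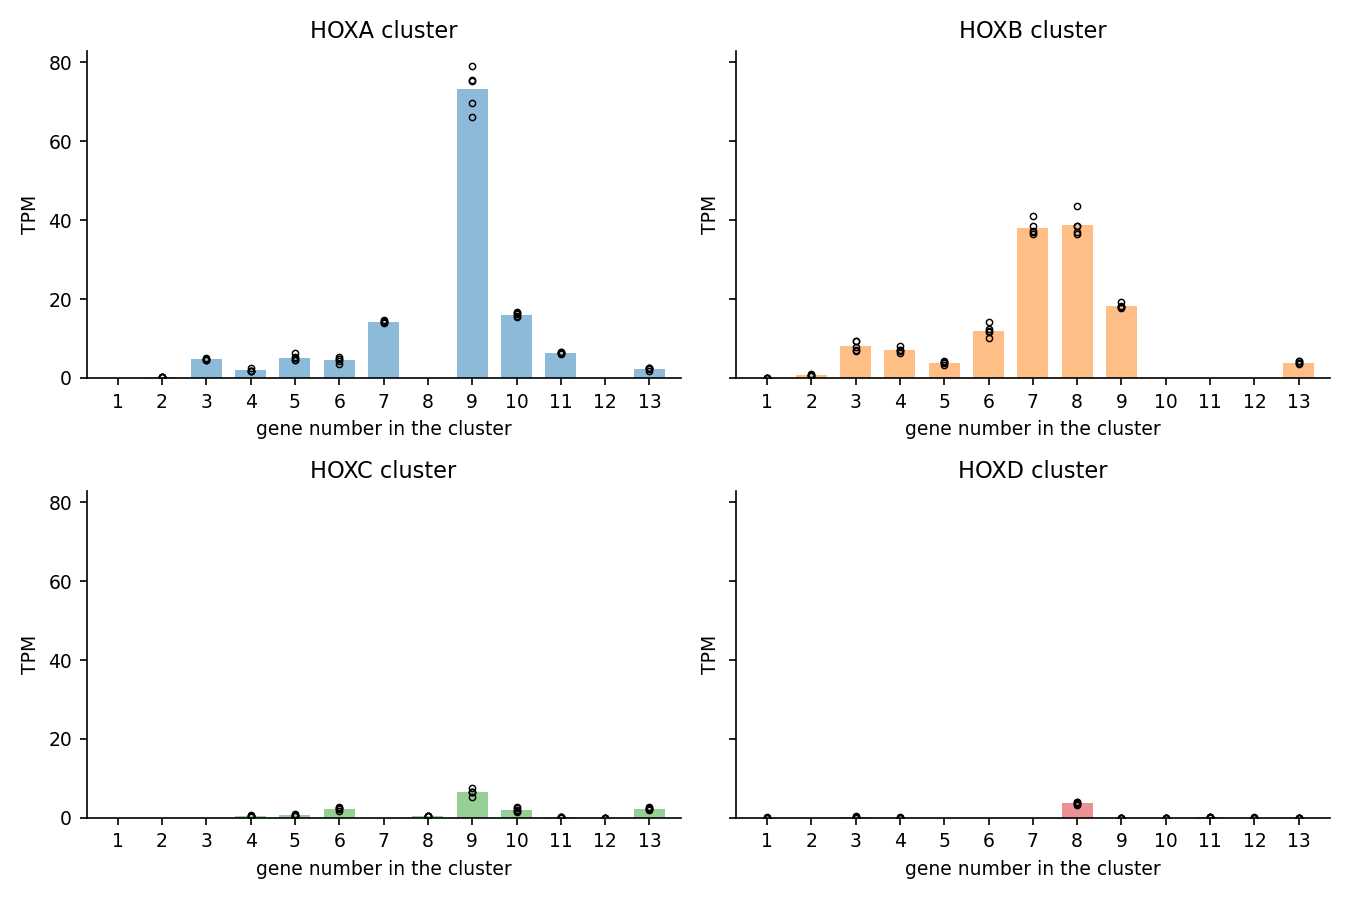
TPM of HOX genes by cluster and by gene number, with bars for the mean of the 5 cultures (from 0) and open circles for each culture; a position with no circles holds no value here. HOXA9 (73.2 TPM), HOXB8 (38.8 TPM) and HOXB7 (38.1 TPM) were highest, and HOXD8 (3.67 TPM) was the only HOXD gene at 1 TPM or more.

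Receptor tyrosine kinases carry growth signals across the membrane. Of 58, 32 reached 1 TPM (55.2%), near the 59.5% of all protein-coding genes. MET, the receptor of hepatocyte growth factor, was highest with 174, 157, 128, 125 and 159 TPM. DDR1, a collagen receptor, measured 117, 132, 118, 103 and 124 TPM and EPHA2, an ephrin receptor, 114, 106, 117, 101 and 119.8 TPM. The ranges of MET and DDR1 and of DDR1 and EPHA2 overlapped, and EPHA2 lay apart from ERBB2 below it. Within the EGF receptor family ERBB2 (55.9 ± 2.6 TPM) was above EGFR (26.9 ± 3.13 TPM) and ERBB3 (15.4 ± 2.13 TPM), and ERBB4 was at 0.076 TPM. FGFR4 (49.03 ± 1.93 TPM) was the highest FGF receptor, followed by FGFR1 (25.2 ± 1.91 TPM), FGFR3 (11.4 ± 1.28 TPM) and FGFR2 (8.35 ± 0.948 TPM). RYK (52.1 ± 8.101 TPM) and PTK7 (45.5 ± 3.99 TPM) take part in Wnt signalling and AXL (45.4 ± 3.23 TPM) binds GAS6. IGF1R measured 4.13, 7.43, 4.28, 3.15 and 4.34 TPM, with culture 2 above the other 4. ALK, ROS1, PDGFRA, FLT1, MUSK, EPHA3, EPHA5 and EPHA6 were listed at 0 in all cultures.

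Nuclear receptors are transcription factors that bind hormones, vitamins and lipids. Of 48, 27 reached 1 TPM (56.3%, against 59.5% of all protein-coding genes), none of them with 100 TPM. The orphan receptor ESRRA, which acts on mitochondrial genes, measured 57.2, 54.6, 72.3, 56.5 and 61.1 TPM and NR2F2 (COUP-TFII) 58.8, 53.6, 58.8, 61.7 and 53.3 TPM, with overlapping ranges. PPARG, a receptor of fatty acids, measured 47.7, 43.2, 38.2, 43.9 and 43.3 TPM. NR2F6 (49.9 ± 7.17 TPM), the clock repressor NR1D2 (41.2 ± 6.09 TPM) and the retinoic acid receptor RARG (37.4 ± 1.7 TPM) complete the highest 6. The vitamin D receptor VDR was at 8.85 ± 0.507 TPM, while CYP24A1, the enzyme that breaks down vitamin D, was at 158, 139, 133, 144 and 145 TPM and the highest of 56 cytochrome P450 genes. The steroid receptors were low or silent, with the glucocorticoid receptor NR3C1 at 7 ± 1.47 TPM and ESR1 and PGR listed at 0. RARB, RORA and RORB were also listed at 0.

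In the Wnt pathway, ligands bind a Frizzled receptor and an LRP co-receptor and so stabilize beta-catenin. Of 17 receptors and co-receptors 12 reached 1 TPM, led by FZD6 (30.5, 27.1, 22.4, 25.5 and 26.6 TPM) and LRP5 (27.2, 23.2, 29.3, 24.01 and 27.3 TPM), which did not differ beyond their spread. RNF43 and ZNRF3 (6.11 ± 0.362 TPM), which remove Frizzled from the surface, were both present. LRP6 was at 12.4 ± 1.43 TPM and LGR4, the R-spondin receptor related to LGR5, at 3.74 ± 0.728 TPM. Among 19 Wnt ligands 8 reached 1 TPM. WNT16 stood far above the others with 104, 93.2, 87.98, 89.2 and 99.3 TPM, followed by WNT10B (10.9 ± 1.49 TPM) and WNT7B (6.13 ± 0.357 TPM). WNT5A (0.012 TPM) and WNT1 (0.006 TPM) were near 0. Of the Notch receptors and ligands 6 of 9 reached 1 TPM, with the ligand JAG2 (29.2, 30.7, 38.1, 37.1 and 32.3 TPM) and the receptor NOTCH2 (28.3, 26.9, 21.3, 20.6 and 27.98 TPM) highest.

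Among 29 receptors of the TNF family 16 reached 1 TPM (55.2%, against 59.5% of all protein-coding genes). TNFRSF12A, the receptor of TWEAK, measured 198, 178, 268, 204 and 195 TPM and TNFRSF1A, the main TNF receptor, 119, 102, 98.6, 96.1 and 102 TPM. The soluble decoy TNFRSF6B (71.8 ± 13.3 TPM) and the lymphotoxin receptor LTBR (68.8 ± 7.999 TPM) came next. The TRAIL death receptors TNFRSF10B (62.8 ± 4 TPM) and TNFRSF10A (31.7 ± 0.962 TPM) were above FAS (12.6 ± 0.877 TPM), and the decoy TRAIL receptor TNFRSF10D was at 28.8 ± 1.08 TPM.

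Of 44 cytokine receptor genes 24 reached 1 TPM (54.5%, against 59.5% of all protein-coding genes). Both chains of the interferon gamma receptor, IFNGR2 (51.6 ± 2.34 TPM) and IFNGR1 (25.01 ± 2.06 TPM), and both chains of the type I interferon receptor, IFNAR1 (26.3 ± 2.66 TPM) and IFNAR2 (14.3 ± 1.59 TPM), were present. OSMR (28.6 ± 3.52 TPM) binds oncostatin M, and IL4R (22.9 ± 2.33 TPM) and IL13RA1 (25.01 ± 3.75 TPM) form a receptor for interleukins 4 and 13. The lymphocyte chains IL2RA and IL2RG were listed at 0. Among G protein-coupled receptors for lipids and proteases 11 of 26 reached 1 TPM, and F2RL1, the protease-activated receptor that responds to trypsin, was highest with 201, 171, 155, 167 and 194 TPM. It lay apart from LPAR3 (22.8 ± 1.86 TPM), LPAR2 (17.3 ± 2.75 TPM) and the thrombin receptor F2R (14.3 ± 1.12 TPM).

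Sensors of foreign nucleic acids and of bacterial products were low, as 9 of 21 reached 1 TPM and none reached 10. The adaptor STING1 measured 6.34, 6.97, 8.72, 6.84 and 8.35 TPM, but CGAS, the enzyme that makes its activating ligand from DNA, had a mean of 0.008 TPM. The DNA sensors AIM2 and ZBP1 and the receptors TLR4, TLR8 and TLR9 were listed at 0. The RNA sensors RIGI (4.03 ± 0.388 TPM) and IFIH1 (3.72 ± 0.507 TPM) and the peptidoglycan sensor NOD1 (3.198 ± 0.195 TPM) were above 1 TPM. Among interferon-stimulated genes 11 of 20 reached 1 TPM (55%, against 59.5% of all protein-coding genes). ISG15, a ubiquitin-like modifier, measured 97.1, 95.6, 120.2, 108 and 100.5 TPM, whereas the antiviral MX1 was at 0.502 TPM and IFI44L was listed at 0.

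Genes that are frequently altered in colorectal cancer were nearly all transcribed, with 19 of 20 at 1 TPM or more and AMER1 at 0.834 TPM. CTNNB1, which codes for beta-catenin, measured 284, 261, 242, 247 and 279 TPM and MYC, a target of beta-catenin, 247, 238, 293, 247 and 240.3 TPM. Their ranges overlapped. BAX (102 ± 22.3 TPM), which carries out apoptosis, SMAD2 (81.1 ± 7.09 TPM) of the TGF-beta pathway and TCF7L2 (72.8 ± 12.5 TPM), the DNA-binding partner of beta-catenin, were also among the highest. APC, the scaffold of beta-catenin destruction, was at 10.9 ± 1.71 TPM. An RNA level does not show whether the protein is made or altered.

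The line is known for defective DNA mismatch repair. All 9 genes of this pathway reached 1 TPM. The replication clamp PCNA was highest with 372 ± 30.2 TPM, and the recognition protein MSH6 measured 63.7, 58.5, 50.9, 57.9 and 60.2 TPM. PMS2, which acts in the cutting step, measured 19.04, 15.6, 14.8, 16.3 and 16.1 TPM. MSH3, which takes part in the recognition of larger loops, measured 1.21, 1.29, 0.87, 0.87 and 1.31 TPM and was the lowest of the 9, with every culture below the lowest culture of PMS2.

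Of 35 cancer-testis antigen genes, which are normally kept to the germ line, 4 reached 1 TPM. MAGEB2 measured 182, 169.7, 152, 177 and 167 TPM, MAGEA3 117, 111, 115, 115 and 119 TPM, MAGEA2 56.3, 56.98, 64.3, 58.4 and 51.5 TPM and PRAME 44.02, 38.8, 41.5, 37.1 and 37.1 TPM. These 4 lay apart from each other in this order. MAGEA6, a near-identical copy of MAGEA3, was at 0.684 TPM, and how reads shared by the copies were divided bears on both values, as it does for MAGEA2 and its copy MAGEA2B (18.4 TPM). Of the remaining genes 13 were listed at 0. None of 12 genes of pluripotency and of the germ line reached 1 TPM, with POU5F1 at 0.014 TPM and NANOG at 0.

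Genes that bear on chemotherapy were largely expressed, with 24 of 28 at 1 TPM or more. GSTP1, a glutathione transferase, measured 609, 567, 650.2, 580.5 and 587 TPM. The fluoropyrimidine target TYMS (304, 266, 247, 285 and 275 TPM), the ribonucleotide reductase RRM2 (434, 425, 414, 428 and 429 TPM), the thymidine kinase TK1 (354 ± 38.9 TPM) and the irinotecan target TOP1 (230.3, 218, 172, 215 and 215 TPM) were high. DPYD, which breaks down fluorouracil, was at 1.19, 1.44, 0.83, 0.99 and 0.93 TPM, and UGT1A1, which conjugates the active form of irinotecan, at a mean of 0.002 TPM, a value that is uncertain as the genes of its locus share exons. SLFN11, which sensitizes cells to DNA damage, was at 0.02 TPM. The drug pumps ABCB1 (2.12, 1.81, 0.83, 2.18 and 3.04 TPM) and ABCG2 (2.08 ± 0.334 TPM) were low.

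All 20 genes of the G1/S phase and all 20 of the G2/M phase were expressed with more than 10 TPM each. CCNB1, the mitotic cyclin, measured 518, 458, 433, 499 and 479 TPM, CDC20 285 ± 11.4 TPM and the replicative helicase subunit MCM4 358 ± 15.9 TPM. MKI67, the common proliferation marker, was at 49.2, 43.8, 38.2, 45.95 and 39.6 TPM. The summed level of the G2/M genes was 2759 ± 154 TPM and that of the G1/S genes 3209 ± 92.4 TPM, with CVs of 5.59% and 2.88% over the cultures.

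All 17 genes of glycolysis reached 10 TPM, led after GAPDH and ENO1 by PKM (1998 ± 68.2 TPM), LDHB (1926 ± 74.9 TPM), ALDOA (1784 ± 129 TPM) and TPI1 (1577 ± 83.6 TPM), and their summed level was 19745 ± 601 TPM. LDHA, the partner of LDHB in lactate dehydrogenase, was at 1566 ± 84.7 TPM. Of 20 hypoxia response genes 19 reached 1 TPM, with NDRG1 at 217, 224, 231, 187 and 262 TPM and the glucose transporter SLC2A1 at 189.6, 168, 216, 170.4 and 199.6 TPM, while CA9, an anhydrase of hypoxic tumors, was at 0.568 TPM. All 22 genes of cholesterol synthesis and uptake reached 10 TPM. FDPS (247 ± 24.8 TPM), FDFT1 (206 ± 5.402 TPM) and DHCR7 (129.9 ± 16.1 TPM) led them, and the summed level had a CV of 1.33%.

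Most of the stress genes listed were expressed in these cultures. All 14 heat shock genes reached 10 TPM, and below the constitutive HSP90AB1 and HSPA8 the mitochondrial chaperonin HSPD1 was at 2685 ± 262 TPM and the inducible HSPA1B at 259 ± 20.2 TPM. Its near-identical copy HSPA1A was listed at 16.6 ± 2.87 TPM, a split that depends on how shared reads were divided. Of 20 genes of the amino acid response under ATF4 18 reached 1 TPM, with SHMT2 (297 ± 17.4 TPM), SLC3A2 (269.8 ± 14.7 TPM), SLC7A5 (225 ± 14.8 TPM) and asparagine synthetase ASNS (112 ± 10.9 TPM) among the highest. Of 19 immediate early genes 17 reached 1 TPM. IER3 (369, 366, 409.5, 406 and 345 TPM) and the AP-1 factor FOSL1 (139, 128, 149, 138 and 135 TPM) were among the highest with MYC, FOS was at 35.3 ± 4.72 TPM and JUN at 7.07 ± 0.598 TPM.

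Most members of gene families known from other tissues were silent or low. The families below were picked by their symbols after the levels had been seen. Of 410 olfactory receptor genes 386 were listed at 0 and 4 reached 1 TPM. OR51B5 measured 137, 142, 122, 135 and 129 TPM and its chromosome 11 neighbours OR51B4 23.9, 20.4, 17.2, 20.9 and 22.4 TPM and OR51B2 8.44, 7.5, 5.63, 6.31 and 6.7 TPM, and OR2A7 was at 1.75 ± 0.225 TPM. In GENCODE 44 OR51B5 spans chromosome 11 from 5303444 to 5505652 (hg38, minus strand), and OR51B2 lies within it on the same strand, so that their reads may not be fully separable. None of 24 bitter taste receptors, 40 beta-defensins, 18 late cornified envelope proteins and 22 chemokine receptors reached 1 TPM. Of 44 chemokines only CXCL16 (38.03, 33.5, 35.8, 31.9 and 35.7 TPM) did so. Of 20 UDP-glycosyltransferase genes with UGT symbols only UGT8 did (18.4, 16.2, 13.6, 14.99 and 15.5 TPM), which is not one of the glucuronosyltransferases. Among 95 potassium channel genes 19 reached 1 TPM. The cytokine IL18, made by epithelia, was at 140.3, 133, 104, 132 and 136 TPM. In contrast, all 78 mitochondrial ribosomal protein genes and 45 of 48 proteasome genes reached 1 TPM. Of 379 solute carriers 206 did so (54.4%), against 59.5% of all protein-coding genes.

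Most genes varied little among the 5 cultures. Over the 8511 genes that averaged 10 TPM or more the median CV was 9.34%, and for the 8124 protein-coding genes among them 9.15%, with 3.54% and 18.0% at the 5th and 95th percentile. A CV over 30% was seen at 45 protein-coding genes (0.554%) and one under 5% at 1084 (13.3%). The median CV fell with the level, from 14.4% for protein-coding genes of 1 to under 10 TPM to 9.60% from 10 to under 100 TPM, 7.58% from 100 to under 1000 TPM and 6.88% above. Without culture 3 the median CV of the 8511 genes was 6.62%, and without any one of the other cultures it was 9.23 to 9.96%.

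The genes with the highest CV at a mean of 10 TPM or more were mostly short noncoding genes of about 110 bases, such as RNA5SP244, RNU6-914P and SNORA63B, together with the processed pseudogene RPS27P19. RNA5SP244 was listed at 0, 0, 0, 57.8 and 0 TPM, RNU6-914P at 0, 0, 0, 159 and 42.3 TPM, SNORA63B at 0, 89.4, 0, 0.61 and 12.7 TPM and RNU6-137P at 31.4, 0, 0, 30.5 and 0 TPM. They alternated between 0 and higher values from culture to culture. As the libraries were made from polyadenylated RNA, the levels of these short RNAs in the cells are uncertain. The median CV was 61.5% over 18 snoRNA genes and 19.9% over 131 processed pseudogenes, against 10.8% over 121 lncRNA genes.

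Among protein-coding genes single cultures made the largest spread, and these genes, apart from PLCB1, were named after their values were seen. PLCB1, a phospholipase of G protein signalling, measured 6.51, 6.09, 3.93, 43.1 and 5.46 TPM, with culture 4 far above the rest, and its CV of 129% was 20.6% without culture 4. PINK1, a kinase that marks damaged mitochondria, measured 24.9, 18.1, 178, 16.8 and 34.4 TPM, and its CV of 127% was 34.1% without culture 3. KLF5, a transcription factor of proliferating crypt cells, measured 30.6, 66.6, 149.8, 30.8 and 56.2 TPM, and its CV of 73.4% was 39.6% without culture 3. TPRN differed in another way, with 6.8, 46.7, 18.5, 6.6 and 35.7 TPM, as cultures 1 and 4 were low and cultures 2 and 5 high.

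The steadiest genes with at least 10 TPM were DYNLL2, a dynein light chain (42.6, 42.4, 42.2, 43.04 and 43.1 TPM, CV 0.899%), PDHA1 of pyruvate dehydrogenase (231, 228, 234, 231 and 229.9 TPM, CV 1.02%), the splicing factor SRSF1 (CV 1.15%), DTD1 (CV 1.24%) and SAFB (CV 1.299%). All 20 genes commonly used as references in PCR reached 10 TPM. PGK1 had the lowest CV (1.93%, 1343, 1333, 1297, 1281 and 1310.3 TPM), before TUBA1B (2.19%), PPIA (2.29%) and GAPDH (3.34%). GUSB (10.1%), YWHAZ (10.3%), TFRC (10.5%), POLR2A (11.1%) and HPRT1 (11.2%) lay above the median CV of protein-coding genes with at least 10 TPM. IPO8 had the highest with 16% (54.3, 54.5, 37.9, 43.5 and 54.8 TPM), above 91.0% of those genes.

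**Figure D3:**
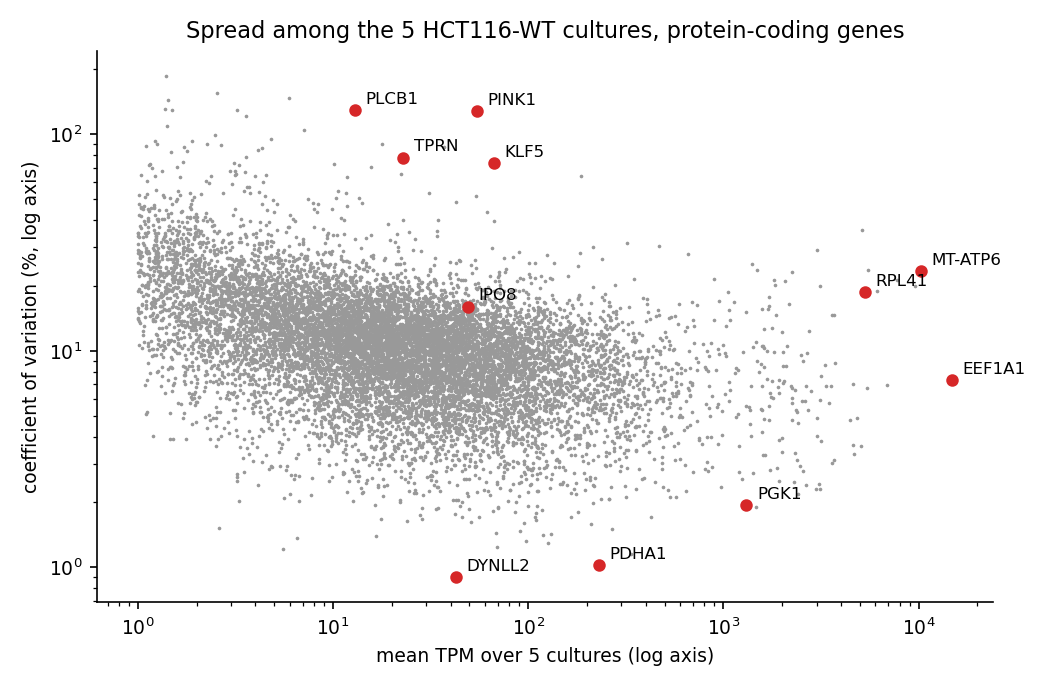
Each grey point is a protein-coding gene that averaged 1 TPM or more, with the mean over the 5 cultures on the x axis (TPM, log axis) and the CV over them on the y axis (%, log axis). PLCB1 and PINK1, with CVs near 130%, lay above the cloud, and DYNLL2 (0.899%) and PDHA1 (1.02%) below it.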

How the data were processed

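Polyadenylated RNA of the 5 HCT116-WT cultures was read by the authors as strand-specific single-read libraries, mapped to hg38 with STAR 2.5.2b and quantified against Ensembl 86 with RSEM 1.3.0 and featureCounts 1.5.1. The authors deposited TPM values with 2 decimals and without counts, and which program gave them is not stated. Gene symbols, classes and lengths were taken from GENCODE 44 (56947 identifiers matched, 1103 did not). Means, SDs, CVs, ranges and shares were computed with Python 3.11.15, numpy 2.4.6 and pandas 2.3.3, and the computation was tested on simulated data. Columns of other samples were not used. Alternatives were other thresholds, scalings (median-of-ratios, quantile, mitochondrial genes removed), removal of a transcript length trend and leaving out each culture.

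Cultures, gene lists and families were chosen with earlier results of these data known. Named were up to 20 of the 30 highest nuclear genes, the highest and lowest mitochondrial genes, the 6 highest lncRNAs, about 6 genes per list with its defining members, HOX genes at 1 TPM or more, and the 10 highest and 5 lowest CVs at 10 TPM or more, with the short noncoding genes among the 10 given by examples. Promoter sequences came from RefSeq (GRCh38.p14), with 1 annotated start kept for each symbol. Symbols with copies elsewhere in the genome were kept as quantified. Some members of the lists are not reported here.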

Additional observations from a re-analysis of the deposited data

Results flagged for a closer look

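In each of the groups of 5 values named in the text, the gap between the most extreme culture and its nearest neighbour was divided by the whole range (Dixon's ratio), for 246 library measures and genes that averaged 1 TPM or more. Chance alone passes the 95% limit in about 1 of 20 such groups, and 24 passed it. The number cannot be set against that rate, since PLCB1, PINK1, RNA5SP244, RNU6-914P and SNORA63B among the 24 were named for their high CV, which here rests largely on 1 culture.

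Culture 3 was the extreme one for 10 genes. It was the highest for ACTB (ratio 0.891), PINK1 (0.891), MYC (0.833), RPS2 (0.762), KRT19 (0.737), CLDN4 (0.731) and TNFRSF12A (0.715), and the lowest for IL18 (0.775), RIGI (0.784) and TOP1 (0.731). The sizes of these gaps differed widely. PINK1 in culture 3 was at 178 TPM beside at most 34.4 TPM elsewhere, whereas ACTB was at 3835 TPM beside at most 3416 TPM. MYC was at 293 TPM beside at most 247 TPM, and TNFRSF12A at 268 TPM beside at most 204 TPM.

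Culture 4 was the highest for PLCB1 (ratio 0.934), RNA5SP244 (1) and RNU6-914P (0.733) and the lowest for GAPDH (0.728) and MCM4 (0.731). Culture 1 was the highest for HOXA4 (0.833), HOXB9 (0.766), LGR4 (0.713), LRP6 (0.747) and TNFRSF1A (0.723). Culture 2 was the highest for SNORA63B (0.858) and IGF1R (0.722), and culture 5 for AXL (0.731) and RNF43 (0.744). For HOXB9, RNF43, GAPDH and MCM4 the extreme culture differed from its neighbour by little of the level, as GAPDH was at 4379 TPM in culture 4 and at 4662 TPM in the next. No library measure passed the limit.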

How the results depend on the processing

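No paired analysis was possible because the values come from 1 group and from no test. The number of genes at 1 TPM or more was 13604 and ran from 12209 (threshold of 2 TPM) to 15107 (threshold of 0.5 TPM), with 12680 when every culture had to reach 1 TPM and 13575 to 13599 without one culture. Genes listed at 0 in every culture numbered 29848, and 30591 to 30725 without one culture. With mitochondrially encoded genes removed, the 100 most abundant genes held 28.4% of the TPM in place of 30.8%, as the removed genes had been among them, and ribosomal protein genes 18.0% in place of 16.9%, as the total they were divided by was smaller. The median CV of 9.34% was 31.6% over all genes above 0, a set that holds many genes near 0, and 8.14 to 11.1% at thresholds of 50 and 1 TPM, 8.80 to 9.25% under other scalings and 8.55% with the length trend removed. Restricted to protein-coding genes, an alternative added after seeing the data, it was 9.15%. It was 6.62 to 9.96% without one culture, lowest without culture 3. The number of steps between the 30 most abundant genes whose ranges lay apart was 2, and 1 to 3 without one culture. List members at 1 TPM or more numbered 430, and 406 to 456 under other thresholds. The CVs of the summed levels of lists were less steady. They kept their value, to within an approximate standard error, in 56 of 78 scaling alternatives and in 176 of 195 runs with 1 culture left out. Depth cannot be read from TPM, so levels near 0 are the least certain.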

Other observations

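Cell junction, adhesion and transcription factor families showed a few high members each. These families were picked by symbol after the levels had been seen. Of 24 claudins, the proteins that seal tight junctions, 6 reached 1 TPM, with CLDN7 at 203, 188, 230.4, 197 and 204 TPM, CLDN4 at 118, 111, 142, 112 and 119 TPM and CLDN12 at 27.5 ± 2.92 TPM. Of 55 keratins 10 reached 1 TPM, and below KRT8, KRT19 and KRT18 came KRT10 (67.3 ± 5.28 TPM), KRT15 (32.7 ± 3.87 TPM) and KRT7 (11.99 ± 1.36 TPM). Of 19 SOX factors 6 did so, with SOX4 (34.8, 33.8, 33.97, 33.1 and 33.7 TPM) next to SOX9. Among 6 GATA factors GATA2 (7.01 ± 0.603 TPM), GATA6 (3.39 ± 0.38 TPM) and GATA3 (2.14 ± 0.233 TPM) reached 1 TPM, and GATA1, GATA4 and GATA5 were listed at 0. Of 51 forkhead factors FOXK2 (69.5 ± 2.87 TPM) and the mitotic factor FOXM1 (60.1 ± 3.91 TPM) were highest.

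Of 22 fibroblast growth factors FGF19, the intestinal hormone that signals through FGFR4, was highest with 11.5, 10.6, 11.9, 10.6 and 11.1 TPM, followed by FGF2 (4.39 ± 0.567 TPM) and FGF9 (2.504 ± 0.359 TPM). Among 28 adhesion G protein-coupled receptors ADGRE5 (CD97, 72.5 ± 5.06 TPM) and ADGRF1 (71.9 ± 8.59 TPM) had overlapping ranges. GPRC5A measured 215, 218, 219, 197 and 229.6 TPM and was the highest of 83 GPR and GPRC receptors. The mitochondrial carriers SLC25A3 (974 ± 22.9 TPM) and SLC25A5 (749.5 ± 29.6 TPM) and the amino acid transporter SLC38A2 (708 ± 91.98 TPM) led the solute carriers. Processed pseudogenes gave 2.01 ± 0.241% of the TPM. RPL39P3 was the highest of them with 519, 2387, 1359, 2344 and 616 TPM, a copy of a ribosomal protein gene for which shared reads make the level uncertain.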
